A study of Mus musculus with 12 samples.

Results

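Gas1, Gm19619, Capn11, Stap1, Pdgfc and Wwtr1 were picked from a table of mouse hepatocyte transcripts because knockout (KO) of Ptprk differed from wild type (WT) in the same direction, at small unadjusted p-values, in hepatocytes of low and of high fat content alike. They are 6 of the 52636 genes in the table, and all 6 passed the filter on low values that left 16563 genes for testing. Gas1 was higher in KO and the other 5 genes were lower. None of the 6 passed a test adjusted over all genes in the KO against WT comparison, so the description of them as genes shifted with the knockout rests on unadjusted p-values. Because the KO against WT values chose the genes, those values are given below as a description with no test of their own. The comparison of the fat fractions was tested, since its values did not enter the choice. It uses the same libraries and the same estimate of spread, so a choice by small p-values favours genes of small spread there too.

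Hepatocytes came from steatotic mouse livers and were parted by lipid content on a Percoll gradient with differential centrifugation, steps described as separating them from dead hepatocytes and from non-parenchymal cells. Each of 6 mice, 3 WT and 3 carrying the knockout of Ptprk, gave 1 low-fat and 1 high-fat library of polyA RNA, so that 12 libraries form 4 groups of 3: WT low-fat, KO low-fat, WT high-fat and KO high-fat. As the extraction protocol was read here, both fractions of every mouse share the same fatty liver, and no group comes from a liver without steatosis. The sample labels themselves say only low fat and high fat. The strain, age, sex and diet of the mice, and whether the knockout was made in the whole animal or in hepatocytes, are not given in the sources used here. Because both fractions come from the same mice, the low-fat and the high-fat comparison of KO with WT are not independent of each other.

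Ptprk encodes a receptor-type protein tyrosine phosphatase of cell contacts. The picked genes belong to unrelated families. Gas1 is a cell-surface protein that binds Hedgehog ligands together with their receptor, Pdgfc is a secreted growth factor that is released from a latent form by proteases and acts on PDGF receptors, and Wwtr1, also called TAZ, is a transcriptional coactivator that the Hippo kinases keep out of the nucleus and that works through TEAD factors. Stap1 is an adaptor protein with a domain that binds phosphotyrosine, studied mainly in blood cells. Capn11 is a member of the calpain family of calcium-dependent proteases, best known from testis, and Gm19619 is annotated as a long intergenic non-coding RNA. In liver, PDGF ligands are known for their action on stellate cells, and TAZ for its role in steatohepatitis.

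The 6 genes lie on 4 chromosomes, none of them the chromosome of Ptprk (positions are those of GRCm38 in GENCODE M21, found by gene identifier). Gas1 (ENSMUSG00000052957) is at chr13:60174405-60177365 on the minus strand. Gm19619 (ENSMUSG00000107198) is at chr5:91257571-91283421 on the minus strand, and Stap1 (ENSMUSG00000029254) lies 5.19 Mb away from it at chr5:86071746-86106125 on the plus strand. Capn11 (ENSMUSG00000058626) is at chr17:45630204-45659325 on the minus strand. Pdgfc (ENSMUSG00000028019), at chr3:81036416-81214040 on the plus strand, and Wwtr1 (ENSMUSG00000027803), at chr3:57455649-57575910 on the minus strand, are 23.6 Mb apart. Ptprk (ENSMUSG00000019889) itself is at chr10:28074820-28597397 on the plus strand. Each gene's value sums reads over all its exons, and which exons or untranslated regions gave the reads is not recorded in the values.

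The 250 bases before the RefSeq start of Pdgfc and Wwtr1 are shown because their levels varied alike over the 12 libraries, as described below, and because the Wwtr1 protein acts through TEAD factors. Those of Capn11 and Gas1 are shown as the genes with the largest difference and with the only positive difference between KO and WT. The sequences were copied from a RefSeq promoter table of build GRCm38.p6, which held 5 of the 6 genes, all except Stap1. They run 5′ to 3′ in the direction of transcription, and capitals mark matches to any of 4 motifs searched on both strands: CATTCC (a core recognised by TEAD factors), GGGTGGTC (a core of the Gli site, read out in Hedgehog signalling), TATAAA and CCAAT. The windows are chr3:81036166-81036415 for Pdgfc (plus strand), chr3:57575911-57576160 for Wwtr1 (minus strand), chr17:45659310-45659559 for Capn11 (minus strand) and chr13:60177536-60177785 for Gas1 (minus strand).
Pdgfc: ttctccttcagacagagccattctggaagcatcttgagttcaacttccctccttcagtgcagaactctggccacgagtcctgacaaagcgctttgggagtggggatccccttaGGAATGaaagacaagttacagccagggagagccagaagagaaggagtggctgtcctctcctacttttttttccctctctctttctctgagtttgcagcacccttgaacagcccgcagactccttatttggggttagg
Wwtr1: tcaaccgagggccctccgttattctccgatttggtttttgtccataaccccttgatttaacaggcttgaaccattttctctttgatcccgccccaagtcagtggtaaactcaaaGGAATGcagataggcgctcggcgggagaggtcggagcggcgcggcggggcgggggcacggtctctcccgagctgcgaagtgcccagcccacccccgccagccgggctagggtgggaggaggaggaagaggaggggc
Capn11: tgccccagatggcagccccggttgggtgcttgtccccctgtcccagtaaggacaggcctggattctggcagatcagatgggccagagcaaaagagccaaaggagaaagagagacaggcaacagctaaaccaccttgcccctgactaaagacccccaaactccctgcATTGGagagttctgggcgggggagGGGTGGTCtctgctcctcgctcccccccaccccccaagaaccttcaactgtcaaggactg
Gas1: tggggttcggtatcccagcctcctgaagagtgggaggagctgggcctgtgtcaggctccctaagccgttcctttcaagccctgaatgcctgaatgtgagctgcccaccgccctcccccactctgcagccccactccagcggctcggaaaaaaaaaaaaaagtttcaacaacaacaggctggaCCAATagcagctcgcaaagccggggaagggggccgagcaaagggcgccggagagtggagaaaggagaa

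Pdgfc and Wwtr1 each held 1 match to CATTCC, on the opposite strand as GGAATG, whose first base lay at -137 and -136 relative to the start. This motif was present in 12.6% of 27025 promoter windows of the same length. Capn11 held GGGTGGTC at -60, a motif present in 0.681% of windows, and ATTGG, the reverse complement of CCAAT, at -84. Gas1 held CCAAT at -68, as 34.5% of windows did. TATAAA, present in 13% of windows, was found in none of the 5 windows, and the window of Gm19619 (chr5:91283077-91283326, minus strand) held none of the 4 motifs. RefSeq and GENCODE M21 starts are not the same for all of these genes. The window of Gm19619 lies wholly inside its GENCODE M21 gene, and that of Capn11 reaches into the first bases of its gene. The window of Gas1 does not adjoin its GENCODE M21 start. The matches describe letters in these windows only.

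All values are reads per 20 M (M stands for mega), the scale to which the authors brought each library, and estimated depths were 15.1 to 25.0 M reads. Ptprk, the targeted gene, was at 1117 to 1364 in the 6 KO libraries and at 2174 to 2883 in the 6 WT libraries, so that a transcript level of 45.6% (low-fat) and 49.9% (high-fat) of WT remained. It was the only gene called in either fraction by limma at an adjusted p under 0.05, at -1.13 on the log2 scale (SE 0.0935) with a limma adjusted p of 0.0013 in low-fat and at -0.99 with a limma adjusted p of 0.00501 in high-fat libraries. This is 0.00604% of the genes tested in each fraction. In high-fat libraries its call was lost in a fit restricted to those 6 libraries (-0.994, limma adjusted p = 0.402) and without WT replicate 3 (-0.968, limma adjusted p = 0.0527), KO replicate 2 (-0.996, 0.053) or KO replicate 3 (-1.01, 0.0638). Hepatocyte markers were high in all libraries, with a sum over 8 markers of 681989 to 847894. Markers of stellate, Kupffer and sinusoidal endothelial cells were present in each library as well, and were higher in the high-fat libraries, as given below beside the results they move with. The 5 to 6 markers each of cholangiocytes, B cells, T and NK cells and neutrophils summed to between 2 and 507, and Cftr, a cholangiocyte marker, was at 0 in all WT high-fat libraries.

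Gas1 was the 1 gene of the 6 with a higher level in KO. In low-fat libraries it was at 497, 665 and 469 reads per 20 M in WT (543.7 ± 106, mean ± SD, n = 3) and at 879, 852 and 883 in KO (871.3 ± 16.9, n = 3). The high-fat libraries held 503, 644 and 567 in WT (571.3 ± 70.6, n = 3) and 750, 975 and 809 in KO (844.7 ± 117, n = 3). The 6 KO libraries all lay above the 6 WT libraries, and the KO mean was 160% of the WT mean for low-fat and 148% for high-fat libraries. The log2 fold change on the scale of log2(value + 2) was 0.70 (SE 0.143) and 0.57 (SE 0.143). In bulk libraries a change in the number of cells of a type and a change in transcript per cell cannot be told apart, for Gas1 and for every gene below.

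A second gene shares part of the Gas1 locus. AC124392.1 (ENSMUSG00000114433, named Gm48488 in GENCODE M21), a long intergenic non-coding RNA on the plus strand at chr13:60176682-60182862, overlaps Gas1 by 684 bases. It ranked eighth by the measure that picked the genes, and was at 168, 202 and 153 in WT and 320, 276 and 302 in KO low-fat libraries. In high-fat libraries it was at 164, 244 and 177 in WT and 258, 325 and 294 in KO. Its log2 level followed that of Gas1 over the 12 libraries with a Pearson r of 0.977. Strandedness of the counting is not given in the sources used here, so reads of the 2 genes over the shared bases cannot be told apart. The plot of both genes shows libraries that were high in Gas1 to be high in AC124392.1 as well.

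**Figure D1:**
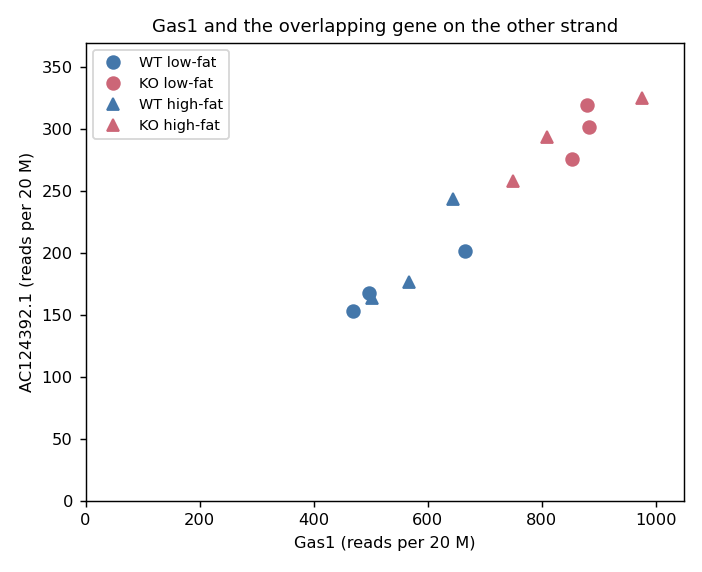
Level of Gas1 (x axis) and of AC124392.1, the overlapping gene on the other strand (y axis), in reads per 20 M in each of 12 libraries; circles are low-fat and triangles high-fat libraries, blue WT and red KO. All 6 KO libraries lie to the right of 665 on the Gas1 axis and above 244 on the AC124392.1 axis, the highest WT values.

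Gm19619, the non-coding RNA, was lower in KO. Its levels were 394, 425 and 352 in WT (390.3 ± 36.6) and 244, 183 and 176 in KO low-fat libraries (201 ± 37.4, SD, n = 3 each). In high-fat libraries they were 476, 383 and 349 in WT (402.7 ± 65.7) and 259 and 148 in KO replicates 1 and 2, with replicate 3 just above the latter (187 ± 62.4, SD, n = 3 each). KO stood at 51.5% and 46.4% of WT, with all 6 KO libraries below all 6 WT libraries, and replicate 1 was the highest KO library in both fractions. The log2 fold changes were -0.95 (SE 0.196) and -1.13 (SE 0.196).

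Capn11 had the largest ratio between genotypes and the lowest level. It was at 20, 22 and 55 in WT low-fat libraries (32.33 ± 19.7) and at 3, 3 and 2 in KO low-fat libraries (2.667 ± 0.577, SD, n = 3 each). In the high-fat fraction it was at 30, 32 and 75 in WT (45.67 ± 25.4) and at 4, 6 and 0 in KO (3.333 ± 3.06, SD, n = 3 each). A level of 0 at the depth of KO high-fat replicate 3 allows up to 3.98 reads per 20 M, the value of 3 reads. The spread within WT came from replicate 3, a single mouse, which held 55 and 75 against 20 to 32 in the other WT mice.

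Expressed in estimated reads, 8 reads of Capn11 in the KO low-fat libraries faced 116 in WT, a depth-corrected ratio of 7.59% with an exact 95% interval of 3.2% to 15.5%. In the high-fat libraries 11 reads faced 144, a ratio of 8.12% with an interval of 3.97% to 15%. These intervals pool the reads of the 3 mice of a group and leave out the spread between mice. WT replicate 3 alone held 64 of the 116 and 83 of the 144 WT reads. Amplified reads are not independent molecules, so the intervals can be too narrow for counting error as well. They describe a difference that chose the gene and are no test of it. The fitted log2 fold changes of Capn11 were -2.75 (SE 0.572) and -3.26 (SE 0.572). They depend on the constant added before the logarithm, and were -1.66 and -1.99 with 10 in place of 2. Without WT replicate 3 they were -2.29 for low-fat and -2.84 for high-fat libraries.

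Stap1, the adaptor protein, was lower in KO within each fraction. Its levels were 137, 129 and 143 in WT (136.3 ± 7.02) and 73, 76 and 85 in KO low-fat libraries (78 ± 6.24, SD, n = 3 each). High-fat libraries held 80, 102 and 97 in WT (93 ± 11.5) and 52, 54 and 65 in KO (57 ± 7.0, SD, n = 3 each). The genotypes did not overlap within a fraction, with KO at 57.2% and 61.3% of WT, but across fractions the highest KO library, at 85, lay above the lowest WT library, at 80. The log2 fold changes were -0.79 (SE 0.173) and -0.68 (SE 0.173). A small nuclear RNA gene, Gm24524, annotated inside Stap1 on the same strand, was at 0 in all libraries.

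Pdgfc, the growth factor, was at 87, 117 and 98 in WT (100.7 ± 15.2) and 48, 50 and 70 in KO low-fat libraries (56 ± 12.2, SD, n = 3 each). The high-fat libraries held 195, 147 and 126 in WT (156 ± 35.4) and 102, 104 and 100 in KO (102 ± 2.0, SD, n = 3 each). KO thus held 55.6% and 65.4% of the WT level without overlap in either fraction, and the KO high-fat libraries lay at the level of the WT low-fat libraries. The log2 fold changes were -0.83 (SE 0.193) and -0.57 (SE 0.193), and the high-fat value was -0.42 without WT high-fat replicate 1, the library at 195. Gm16000 is annotated on the strand opposite to Pdgfc.

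Wwtr1, the Hippo pathway coactivator, showed the smallest difference and the least spread. Its levels were 557, 521 and 555 in WT (544.3 ± 20.2) and 380, 381 and 439 in KO low-fat libraries (400 ± 33.8, SD, n = 3 each). In high-fat libraries they were 723, 606 and 708 in WT (679 ± 63.7) and 534, 518 and 551 in KO (534.3 ± 16.5, SD, n = 3 each). KO was at 73.5% and 78.7% of WT, again without overlap within a fraction, and KO high-fat libraries covered the range of WT low-fat libraries only in part, from 518 to 551 against 521 to 557. The log2 fold changes were -0.44 (SE 0.106) and -0.34 (SE 0.106). The SD within groups on the log2 scale was 0.12 for Wwtr1, against 0.756 for Capn11, 0.185 to 0.261 for the other 4 genes and a median of 0.227 over all genes tested. Gm16016, a pseudogene, is annotated on the opposite strand.

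**Figure D2:**
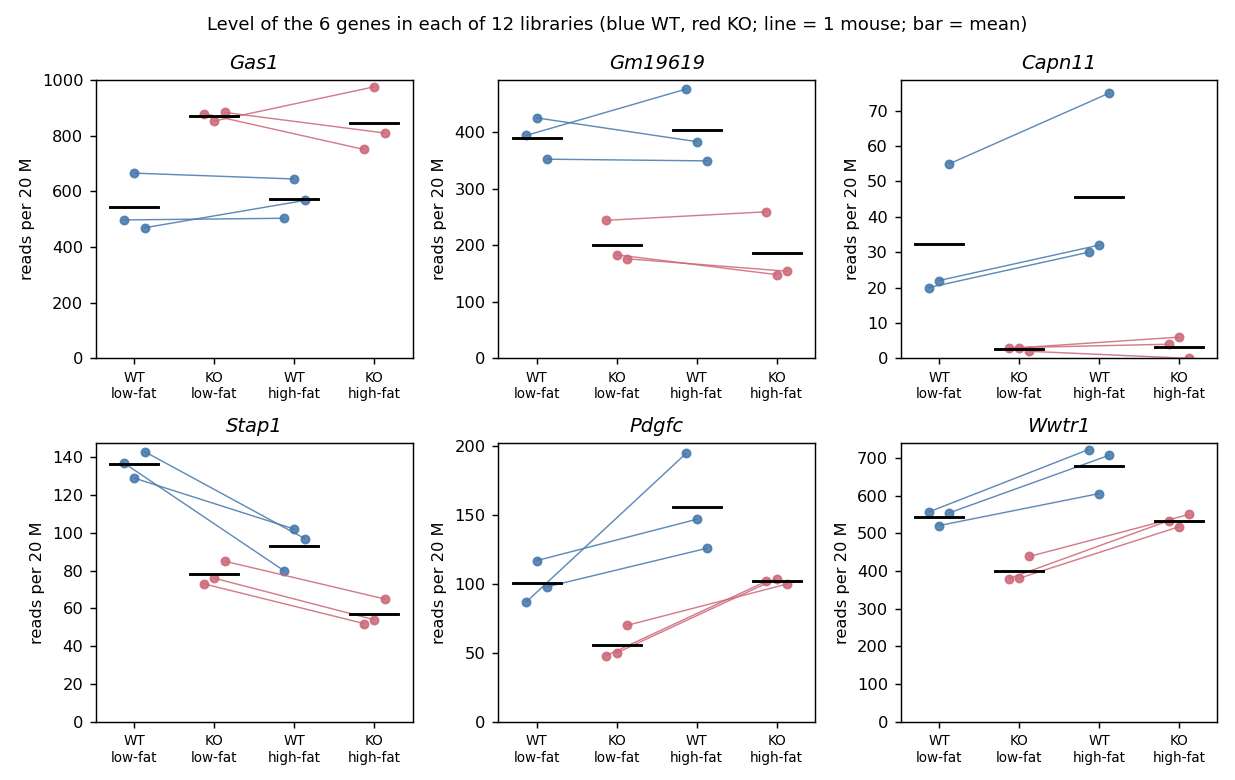
Level of each of the 6 genes in reads per 20 M (y axis, starting at 0) in the 4 groups (x axis); each point is a library, blue WT and red KO, lines join the 2 fractions of a mouse and bars are group means. KO libraries lie above WT for Gas1 and below WT for the other 5 genes within each fraction, and Pdgfc and Wwtr1 go up while Stap1 goes down from low-fat to high-fat in all 6 mice.

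Read as a description of how the genes were chosen, the unadjusted limma p-values of KO against WT ranged from 0.000435 (Gas1) to 0.00156 (Wwtr1) for low-fat and from 0.000111 (Gm19619) to 0.012 (Pdgfc) for high-fat libraries. Adjusted by limma over 16563 genes, they were 0.679 to 1 over the 6 genes and both fractions, and 0.0572 to 0.997 with the replicate number as a block. For all genes, 1.72% had an unadjusted p under 0.05 with low-fat and 2.02% with high-fat libraries, and 0.652% did so in both with the same direction. The genotypes did not overlap for 4.97% of all genes in low-fat and for 4.51% in high-fat libraries. Groups without overlap in both fractions and the same direction, which all 6 genes showed, were found for 0.7% of all genes. For Gas1, Gm19619 and Capn11 all 6 KO libraries lay on 1 side of all 6 WT libraries, as for 0.248% of all genes.

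The genes were not taken by a strict limit. When the 11140 genes with the same direction in both fractions were ordered by the larger of their 2 unadjusted p-values, Ptprk was at rank 1, followed by Gm19619 at 2, Capn11 at 3, Gas1 at 4 and Stap1 at 5, while Wwtr1 was at 18 and Pdgfc at 27. Ptprk aside, 20 genes that were not picked ranked above Pdgfc. The highest of them were Fgfr2, a fibroblast growth factor receptor, at 0.62 and 0.58 on the log2 scale (larger p by limma 0.0026), and Igfbp2, which binds insulin-like growth factors, at 0.39 and 0.38 (larger p by limma 0.00429). AC124392.1, the neighbour of Gas1, followed at 0.79 and 0.60 (larger p by limma 0.00494).

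**Figure D3:**
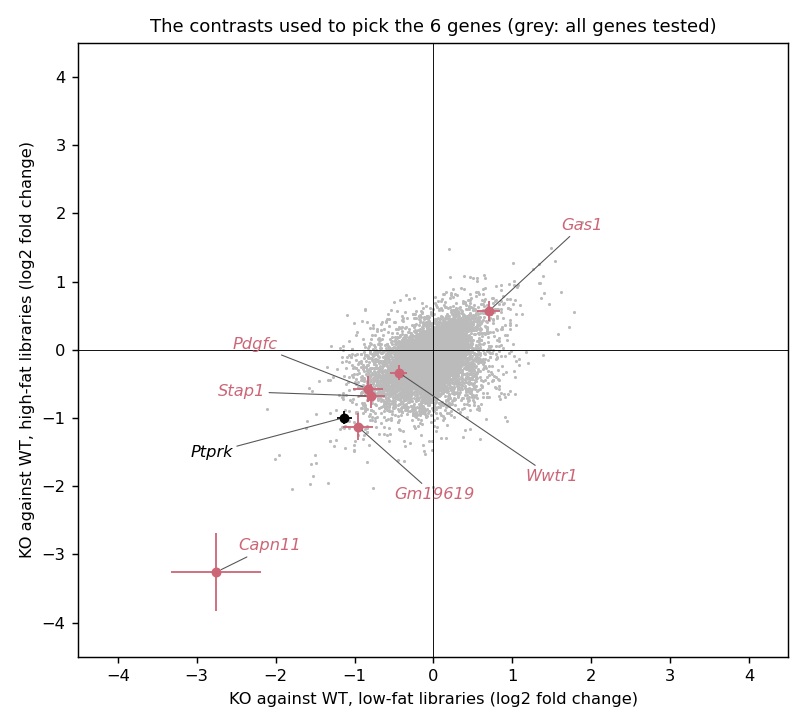
Log2 fold change of KO against WT in low-fat (x axis) and high-fat (y axis) libraries for all 16563 genes tested (grey), the 6 picked genes (red) and Ptprk (black); bars are standard errors. Capn11, at -2.75 and -3.26, lies farthest out of the 6 and Wwtr1, at -0.44 and -0.34, lies within the cloud, since the genes were picked by p-value and not by fold change.

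Per kilobase of exon, Gas1 was the most abundant of the 6 in each group, at 184, 294, 193 and 285 reads per 20 M per kilobase in WT low-fat, KO low-fat, WT high-fat and KO high-fat libraries. Gm19619 (122, 62.8, 126 and 58.4 in the same order) and Wwtr1 (114, 83.7, 142 and 112) came next. Their libraries overlapped in both WT groups, and in both KO groups Wwtr1 was above Gm19619 without overlap. Stap1 (21.9, 12.6, 15 and 9.17) and Pdgfc (19.8, 11, 30.7 and 20) overlapped in both low-fat groups, while in both high-fat groups Pdgfc lay above Stap1. Capn11 was at 11.9, 0.985, 16.9 and 1.23, lowest in 3 groups, and in WT high-fat libraries its range covered that of Stap1.

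High-fat and low-fat hepatocytes were compared next, a contrast whose values did not pick the genes although its libraries and its residual spread did enter their p-values. Averaged over both genotypes, Pdgfc and Wwtr1 rose and Stap1 fell in the high-fat fraction, while Gas1, Gm19619 and Capn11 did not pass the test. That is 3 of 6 genes, where limma called 5.77% of all genes at an adjusted p under 0.05 (956 genes, of which 5.05% of all genes tested were higher and 0.725% lower). The 2 shares are a description and not a test of the 6 genes as a group, because a choice by small p-values can favour genes of small spread. The SD within groups was 0.12 for Wwtr1, 0.185 for Stap1 and 0.188 for Gas1, beside a median of 0.227 over all genes. It was 0.227 for Pdgfc, 0.261 for Gm19619 and 0.756 for Capn11. With the mouse as a replicate block limma called 1819 genes, 11.0%, and the same 3 of the 6 picked genes passed.

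Pdgfc was higher with high fat content in 6 of 6 mice, by 1.05, 0.366 and 0.247 in the WT mice and 0.891, 1.01 and 0.52 in the KO mice on the log2 scale. Its mean difference was 0.68 (SE 0.136, limma adjusted p = 0.0136). The high-fat mean was 155% of the low-fat mean in WT and 182% in KO. A two-sided exact permutation test that flips the signs of the 6 mice gave p = 0.03125, the smallest value it allows. Pdgfc kept an adjusted p of 0.0097 to 0.039 by limma under every alternative run, including each fit with 1 library left out.

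Wwtr1 was higher by 0.283, 0.26 and 0.239 in the WT mice and 0.319, 0.428 and 0.344 in the KO mice, the most even difference of the 6 genes (0.31 ± 0.0686, SD over 6 mice). Its mean difference had an SE of 0.0751 (limma adjusted p = 0.0319), and the exact permutation test over mice gave p = 0.03125. The high-fat mean was 125% of the low-fat mean in WT and 134% in KO. The call did not hold without the filter on low values (0.28, limma adjusted p = 0.108), nor in 8 of the 12 fits with 1 library left out. Those were the fits without WT low-fat replicates 1 and 2, WT high-fat replicates 1 and 3, KO low-fat replicates 1 and 2, and KO high-fat replicates 2 and 3, with limma adjusted p-values of 0.0567 to 0.0807. Over all alternatives the difference stayed between 0.279 and 0.366.

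Stap1 was lower with high fat content in 6 of 6 mice, by -0.852, -0.291 and -0.66 in the WT mice and -0.639, -0.49 and -0.36 in the KO mice. Its mean difference was -0.55 (SE 0.122, limma adjusted p = 0.0228; exact permutation test over mice p = 0.03125). The high-fat mean was 68.2% of the low-fat mean in WT and 73.1% in KO. In 6 of 12 fits with 1 library left out the call was lost, without WT low-fat replicates 1 and 3, WT high-fat replicate 1, KO low-fat replicate 3 and KO high-fat replicates 1 and 2, with limma adjusted p-values of 0.0547 to 0.0689. The difference ranged from -0.617 to -0.476 over all alternatives.

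The other 3 genes differed little between fractions or varied in direction. Gas1 differed by -0.0404 ± 0.212 (log2, mean ± SD over 6 mice, limma adjusted p = 0.88), and 2 mice were higher and 4 lower. Gm19619 differed by -0.104 ± 0.161 (limma adjusted p = 0.754) and was lower in 5 of 6 mice. Capn11 differed by 0.187 ± 0.617 (limma adjusted p = 0.86) and was higher in 5 of 6 mice, with KO replicate 3, whose high-fat value is 0, at -1.02. The exact permutation tests gave 0.65625, 0.1875 and 0.5.

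**Figure D4:**
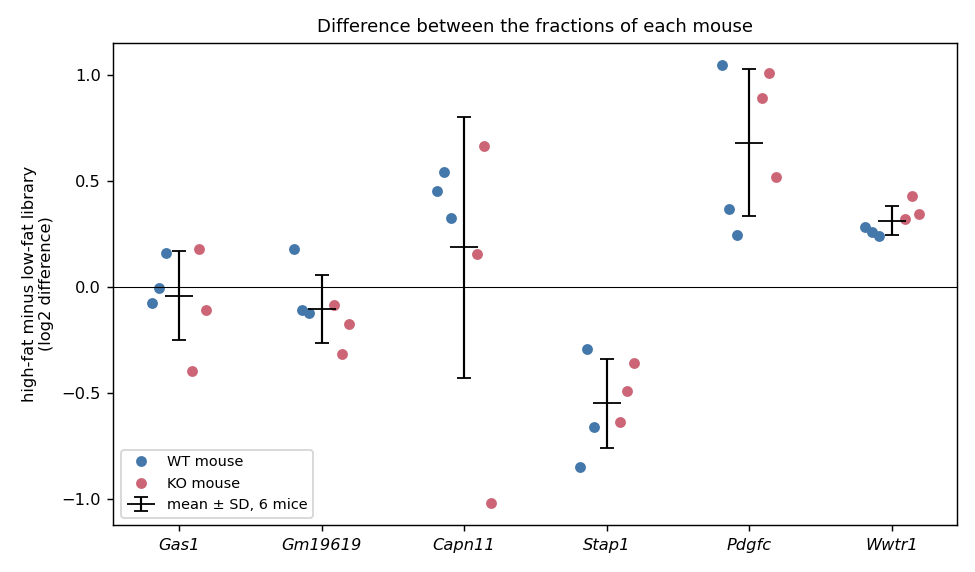
High-fat minus low-fat log2 level (y axis) of each of the 6 genes (x axis) in each mouse, blue WT and red KO, with the mean and SD over 6 mice. All 6 mice lie above 0 for Pdgfc and Wwtr1 and below 0 for Stap1, while Gas1, Gm19619 and Capn11 have mice on both sides.

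Within a single genotype none of the 6 genes passed. In WT limma called 0 genes between fractions (0.0% of those tested, with 11.2% at an unadjusted p under 0.05), and the limma adjusted p-values of Stap1, Pdgfc and Wwtr1 were 0.187, 0.277 and 0.384. In KO, where 0.839% of genes were called, they were 0.286, 0.082 and 0.162. With the mouse as a replicate block, which called 1.7% of genes, Wwtr1 passed in KO (0.36, limma adjusted p = 0.0412). The interaction of genotype and fraction, described only because the choice asked for the same direction in both fractions, was 0.10 for Stap1, 0.25 for Pdgfc, 0.10 for Wwtr1, -0.14 for Gas1, -0.17 for Gm19619 and -0.51 for Capn11. limma called 0.0% of all genes for it, with and without the replicate block, and 0.145% had an unadjusted p under 0.05.

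Markers of other liver cells moved with the same comparison. All 10 stellate cell markers, 8 of 9 Kupffer cell markers and all 9 sinusoidal endothelial markers were called higher in high-fat libraries. Their median log2 differences were 2.51, 2.31 and 1.77. Of all genes, 5.05% were called higher, and the median over all genes was -0.0221. The summed stellate markers were at 153 to 724 reads per 20 M in low-fat and at 2225 to 3855 in high-fat libraries, led by Col3a1 (2.92), Dcn (2.83) and Lrat (2.67). The Kupffer markers summed to 321 to 1090 and 1851 to 10375, and the replicate 1 libraries of both genotypes were highest in the high-fat fraction, at 10375 and 8940. The endothelial markers summed to 1302 to 3586 and 5805 to 17341. No marker of these 3 lists was at 0 in all libraries of a group. The differences of Pdgfc and Wwtr1, at 0.68 and 0.31, had the same direction as these markers and that of Stap1 the opposite one, and the part of these cells in them was not tested. Without WT high-fat replicate 1 the differences of Pdgfc, Wwtr1 and Stap1 were 0.609, 0.3 and -0.486, and without KO high-fat replicate 1 they were 0.725, 0.356 and -0.476.

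The same markers also differed between genotypes. All 9 endothelial markers were lower in KO in both fractions, with medians of -0.673 (low-fat) and -0.422 (high-fat). The medians over all genes were -0.00359 and -0.0141. By limma 0 of the 9 were called in either fraction, where 0.00604% of all genes were called. An unadjusted p under 0.05 by limma was found for 2 of the 9 in low-fat and 0 in high-fat libraries. The shares over all genes were 1.72% and 2.02%. The sums of these markers did not overlap in low-fat libraries, at 3130 to 3586 in WT and 1302 to 2881 in KO. They overlapped in high-fat libraries, at 7290 to 17341 in WT and 5805 to 11417 in KO. For KO against WT the stellate markers had medians of -0.514 (low-fat) and 0.0102 (high-fat), and the Kupffer markers -0.796 and -0.115. KO low-fat replicate 1 had the lowest sum for all 3 cell types. Without it, the KO against WT values of Pdgfc and Wwtr1 in low-fat libraries were -0.75 and -0.42. The other KO low-fat libraries also lay below all WT low-fat libraries in the endothelial sum, at 2881 and 2676. That fit thus keeps a difference in these markers. The part of these cells in the lower levels of the 5 genes was not tested.

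**Figure D5:**
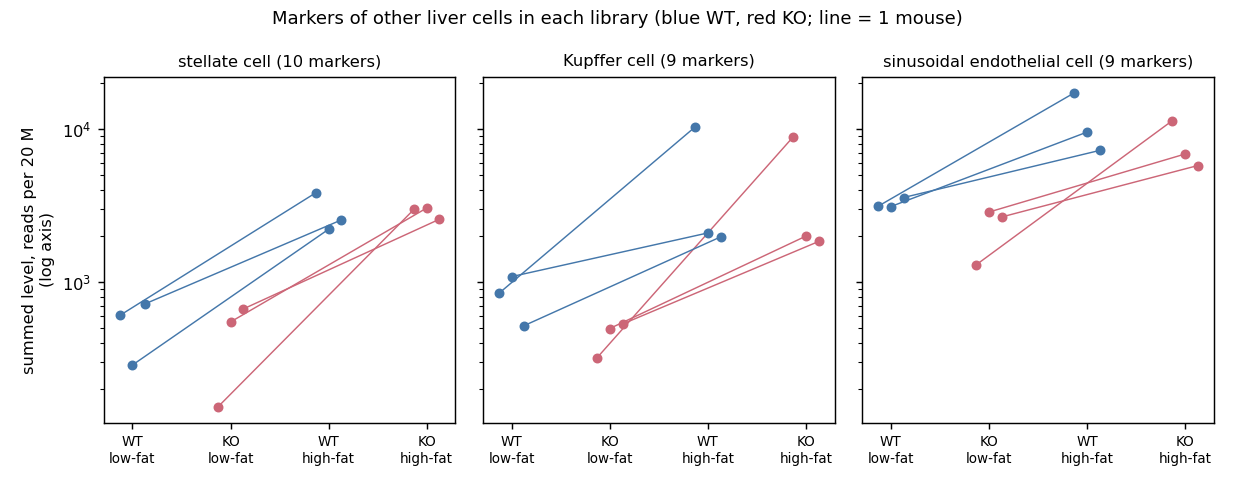
Summed level of the markers of stellate, Kupffer and sinusoidal endothelial cells in reads per 20 M (y axis, log scale) in the 4 groups (x axis); points are libraries, blue WT and red KO, and lines join the 2 fractions of a mouse. Each mouse has a higher sum in its high-fat library, and KO low-fat replicate 1 has the lowest sum in each panel.

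The levels of Pdgfc and Wwtr1 varied alike, with a Pearson r of 0.906 over the 12 libraries on the log2 scale, which includes the differences between genotypes that chose them. Stap1, which differed between genotypes in the same direction but between fractions in the other, had an r of 0.136 with Pdgfc and 0.277 with Wwtr1. Gas1 had negative values with the other 5, from -0.885 with Gm19619 to -0.615 with Stap1.

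Among all tested genes outside the 6, those most like each were again found by Pearson r over the 12 libraries, given without a test because all share mice and libraries. This r includes the genotype differences that chose the 6 genes. The search thus favours genes that differ between genotypes as the picked gene does, and their KO against WT values are a description only. Nkd1, an inhibitor of Wnt signalling, and Atp6v0e2, a subunit of the vacuolar proton pump, were most like Pdgfc (r = 0.93 and 0.926). Nkd1 was at -1.15 (low-fat) and -0.63 (high-fat) for KO against WT and at 1.38 between fractions. Hr, a corepressor of nuclear receptors, and Phldb1 were most like Wwtr1 (r = 0.921 and 0.914), and Hr was at -1.15 and -1.13 between genotypes and 0.94 between fractions. Ankmy1 and Slc7a4 were most like Stap1 (r = 0.91 and 0.903), both lower in KO and at -0.44 and -0.61 between fractions. After AC124392.1, Gas1 was most like Igtp, an interferon-inducible GTPase (r = 0.899). Gm19619 was most like Rfxank, a subunit of the factor that drives MHC class II genes, and Gm45355 (r = 0.902 and 0.899). Capn11 was most like Gnai1, an inhibitory G protein subunit, and Gm44202 (r = 0.907 and 0.893), with Gnai1 at -1.55 and -1.68 between genotypes.

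Genes with roles next to the picked ones were described as 6 lists. Of these, 0 genes were called by limma in KO against WT in either fraction, where 0.00604% of all genes were called. An unadjusted p under 0.05 by limma was found for 1 of 22 Hippo genes and 1 of 10 PDGF genes in low-fat libraries and for 1 of 10 Hedgehog genes in high-fat libraries, and for 0 genes of the lists otherwise. The shares over all genes were 1.72% in low-fat and 2.02% in high-fat libraries. Yap1, the paralog of Wwtr1, was at 2337 ± 55 and 2290 ± 81.7 in WT and KO low-fat and at 2240 ± 106 and 2323 ± 105 in WT and KO high-fat libraries (SD, n = 3 each). Its log2 fold changes were -0.02 and 0.06, and between fractions it was at -0.08 (limma adjusted p = 0.499). Of 24 listed genes of the Hippo pathway, 22 were tested, with KO against WT medians of -0.0131 and 0.00432 beside -0.00359 and -0.0141 for all genes. Between fractions 1 of the 22 was called, Amotl1, a scaffold protein that binds YAP and TAZ, at 1.68 (SE 0.228, limma adjusted p = 0.00298), and the list's median was -0.0699 beside -0.0221 for all genes. With the mouse as a replicate block 2 genes of this list were called higher and 3 lower. Of all genes, 5.77% were called between fractions without the block and 11.0% with it.

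Of 19 listed target genes of YAP and TAZ, 16 were tested. Their KO against WT medians were -0.103 and -0.0217, with 11 and 9 of 16 lower. Between fractions 10 were called higher and 0 lower with the mouse as a replicate block, beside 11.0% of all genes in either direction. Without the block 6 were called higher and 0 lower, beside 5.05% and 0.725% of all genes, and the median was 0.693 beside -0.0221. The largest were Axl, a receptor tyrosine kinase (2.38, limma adjusted p = 0.0106), Arhgef17, a guanine nucleotide exchange factor (2.09, limma adjusted p = 0.00388), and Rbms3, an RNA-binding protein (2.07, limma adjusted p = 0.00481). Ctgf and Cyr61, the best-known targets, were at 2.17 (limma adjusted p = 0.0558) and 0.59 (limma adjusted p = 0.521) and passed with the block, at 0.00628 and 0.0243. Ctgf was low and uneven, from 3 to 180 reads per 20 M over the libraries, and Axl was highest in the replicate 1 high-fat libraries, at 951 and 848 against 186 to 247 in the others, as were the Kupffer markers. Stellate, Kupffer and endothelial markers were higher in high-fat libraries too, and the part of these cells in this list was not tested.

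Of 11 listed genes around PDGF signalling, 10 were tested and 3 were called higher in the high-fat fraction, against 5 higher and 1 lower with the replicate block. Of all genes, 5.05% were called higher, and 11.0% were called in either direction with the block. The 3 called without the block were the receptors Pdgfrb (2.41, limma adjusted p = 0.00362) and Pdgfra (2.22, limma adjusted p = 0.00285) and the protease Plau, also called urokinase (2.27, limma adjusted p = 0.00509). Pdgfrb is also on the stellate cell list. Pdgfra, the receptor that Pdgfc binds, was at 3 to 11 reads per 20 M in low-fat and at 34 to 50 in high-fat libraries. Among the other ligands, Pdgfa was at -0.26 between fractions (limma adjusted p = 0.226, 0.0493 with the block) and Pdgfd at 0.57 (limma adjusted p = 0.188). The list's median was 0.612 between fractions, and -0.129 and -0.0968 for KO against WT.

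For Hedgehog signalling, in which Gas1 acts, 10 of 16 listed genes were tested and 3 were called higher in the high-fat fraction, beside 5.05% of all genes. Among the 3, Hhip, a Hedgehog-binding antagonist, was at 2.55 (limma adjusted p = 0.00285) and Kif7 at 1.44 (limma adjusted p = 0.0287, 0.0564 with the block). Ptch1, the receptor with which Gas1 works, was at 0.27 and 0.35 for KO against WT and -0.13 between fractions (limma adjusted p = 0.508). Gli1, a transcriptional readout of the pathway, was too low to test, with group means of 0.6667 to 2.333 reads per 20 M. The list's median was -0.102 and -0.142 for KO against WT and 0.138 between fractions.

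Of 15 listed calpain genes, 11 were tested and 0 were called between fractions, with or without the replicate block, and 1 had an unadjusted p under 0.05 by limma. Over all genes 5.77% were called, 11.0% with the block, and 18.3% had an unadjusted p under 0.05. Capn1 and Capn2, the widely expressed calpains, were at -0.09 and 0.04 for KO against WT in low-fat libraries, at -0.07 and 0.01 in high-fat libraries, and at 0.01 and 0.00 between fractions. Stap2, the paralog of Stap1, was at 0.16 and -0.04 between genotypes and -0.06 between fractions (limma adjusted p = 0.792). Of 12 listed genes of Stap and Tec family signalling, 9 were tested, and the receptor kinases Kit (2.16, limma adjusted p = 0.00759) and Csf1r (1.62, limma adjusted p = 0.0361) were called higher in the high-fat fraction, where Stap1 itself was lower. The share of all genes called higher was 5.05%.

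The surroundings of the genes on the chromosome were also examined. Of 79 tested genes whose start lies within 10 Mb of Ptprk, 0 were called by limma between genotypes in either fraction, Ptprk set aside, and medians were -0.0471 and -0.0455. An unadjusted p under 0.05 was found for 3 of them with low-fat libraries (3.8%) and 4 with high-fat libraries (5.06%), where the shares over all genes were 1.72% and 2.02%. In windows of the same size around each of the 6 genes, chosen after their values were seen, 77 to 178 genes were tested. By limma 0 were called in either fraction, with 0 to 4 genes of a window (0.0% to 3.16%) at an unadjusted p under 0.05 among low-fat and 0 to 6 (0.0% to 3.37%) among high-fat libraries, beside the same 1.72% and 2.02%. The windows of Gm19619 and Stap1, 5.19 Mb apart, each count the other gene, which was picked for its small p-values. That of Gas1 counts AC124392.1, which overlaps it. The largest shares, 3.16% and 3.37%, were those around Stap1 and Gas1, so they include such genes. A difference in strain background between WT and KO mice was not tested, because the labels give no strain.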

How the data were processed

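Gene levels from polyA RNA were measured in 12 libraries, a low-fat and a high-fat one from each of 6 mice. The deposited values are a score: the authors scaled read counts per gene to 20 M (mega) a library and rounded them up to whole numbers, as read from the values, since each column sums to 20.01 M. Per the submitters' processing notes the build was mm9. The aligner, counter, annotation release and strandedness are not given in the sources used here. Positions were looked up by gene identifier in GENCODE M21 (GRCm38; 52403 of 52636 identifiers matched), with no conversion. Depth, estimated from the steps between low values, was 15.1 to 25.0 M reads.

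The filter kept 16563 genes that reached 10 in 3 or more libraries. Values were rescaled by the trimmed mean of M values and analysed as log2(value + 2) with limma 3.58.1 in R 4.3.3, with a mean for each of the 4 groups, moderated variances with an intensity trend, two-sided p-values and Benjamini-Hochberg adjustment over all genes tested. Calls were made at an adjusted p under 0.05. The script was tested on simulated data. Over 6 mice, signs of the fraction differences were flipped in all 64 ways (two-sided exact permutation test). Replicates of a group are different mice, per the labels. The pairing of fractions comes from the mouse names in the labels. Deviations from group means of the 2 libraries of a mouse correlated with r of 0.469 to 0.582 in WT and -0.00869 to 0.46 in KO. Same-numbered WT and KO libraries are different mice and correlated with 0.251 to 0.396 (low-fat) and -0.171 to 0.49 (high-fat), so numbers pair mice by a hint of the data alone.

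The 6 genes, the gene lists, the marker lists and the tests were chosen with earlier results of these data known. Named genes are the 6 genes, Ptprk, the 2 genes most like each by Pearson r, the 3 next in rank by the measure of choice, called genes of the lists (the 3 largest if over 5) and 12 genes near the 6 in role; 1 gene that this rule names is not reported here.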

Additional observations from a re-analysis of the deposited data

How the results depend on the processing

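Alternatives were median-of-ratios scaling, the deposited scaling alone, constants of 0.5 and 10 in the logarithm, no filter, the replicate block, a fit restricted to the libraries compared, and leaving out each library. The cause of the changes below was not tested. For KO against WT, 1 gene was called in low-fat libraries under each. In high-fat libraries a fit restricted to the libraries compared gave 0 calls (234 at an unadjusted p under 0.05 by limma), and leaving out 1 library gave 0 to 1 calls, 0 without WT high-fat replicate 3 and KO high-fat replicates 2 and 3. Between fractions, a constant of 10 gave 1 call in WT. In KO the replicate block gave 282 calls (217 higher, 65 lower), the restricted fit 0 (1384 at an unadjusted p under 0.05 by limma), and leaving out 1 library 0 to 37. Averaged over genotypes, the replicate block gave 1819 calls (1119 higher, 700 lower) and leaving out 1 library 604 to 1101. The block changed no call of the 6 genes other than that of Wwtr1 in KO. The fraction differences that changed sign were near 0: with the deposited scaling alone Gm19619 in WT was 0.0366 and Gas1 averaged over genotypes 0.0139, with a constant of 10 Capn11 in KO was 0.0285, and with no filter Gas1 in WT was -0.0236. Leaving out 1 library gave ranges across 0 for Gas1 in WT (-0.0716 to 0.146), in KO (-0.215 to 0.0344) and averaged (-0.0933 to 0.044), for Gm19619 in WT (-0.122 to 0.075), for Capn11 in KO (-0.473 to 0.522) and averaged (-0.0184 to 0.477), and for the interaction of Stap1 (-0.0153 to 0.2) and Capn11 (-0.962 to 0.0885). KO against WT kept its sign for the 6 genes in both fractions. Depth limits Capn11 in KO, where 2 to 3 reads per 20 M in low-fat libraries are near the value of 3 reads.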
